A study of Caenorhabditis elegans with 2 samples.

Results

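The genes described here encode the spliceosome and its regulators in Caenorhabditis elegans. They were chosen by name, as the protein-coding genes of Ensembl WBcel235 whose symbol starts with snr-, prp-, rsp-, sftb-, sfta-, uaf-, rnp- or hrp. This gave 52 of 19973 protein-coding genes. There were 7 snr-, 13 prp-, 8 rsp-, 3 sftb-, 2 uaf-, 9 rnp- and 10 hrp genes, and no gene carried the prefix sfta-. The question asked of them was where HMG-11 lay at their promoters and whether the prefixes differed. HMG-11 was mapped by chromatin immunoprecipitation and sequencing (ChIP-seq) in strain TH184, genotype unc-119(ed3) III; ddIs101. This transgenic line stably expressed HMG-11 fused to GFP and FLAG at its C terminus, and the precipitation used an antibody against GFP. Whole hermaphrodite L3 larvae were collected 52 h after synchronisation as starved L1 larvae, and chromatin was sheared by sonication. There were 2 biological replicates of 1 group. No second genotype, stage or untagged library was analysed here, and in whole larvae binding in many cells cannot be told apart from strong binding in few.

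Splicing removes introns from nuclear transcripts. Sm proteins (the snr- genes) form a ring on the small nuclear RNAs, U2AF (uaf-) recognises the 3′ splice site, SF3B (sftb-) anchors U2 at the branch point, and the Prp proteins (prp-) assemble and drive the catalytic particle. SR proteins (rsp-) and hnRNP proteins (hrp) bind pre-mRNA and adjust which splice sites are used, and the rnp- genes are a mixed class of proteins with RNA-binding domains. In worms these genes matter broadly, since most genes have introns and many transcripts also receive a trans-spliced leader. HMG-11 itself is an HMGA-type protein, a small chromatin protein whose AT-hooks are known to contact stretches of A and T in the narrow groove of the helix.

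Each replicate list held 30000 regions, and so did the pooled list, which was called on both libraries joined. Regions were ranked within a list by the authors' signal value, with rank 1 the strongest. Its scale was not given in the sources used here. Signals are therefore compared only within a list. The thresholded list held 4037 regions, which were exactly the 4037 strongest of the pooled list, and "peak" means one of these. A gene was called listed when a region's summit lay in its promoter window, from 1000 bp upstream to 200 bp downstream of any of its transcript starts. The rank of a gene is that of the strongest such region. Where a gene has several starts, the distance is to the nearest of them.

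Sequence around the summit is shown for 10 regions that carry the results below, namely the strongest of several prefixes, the summits between paired splicing genes, and the peak nearest to the threshold. Each line gives 101 bp with the summit in the middle, on ce11 and 5′ to 3′. Capitals mark TTCGAA and also AACGCG, which reads CGCGTT on the other strand, and both are described further down.
snr-4 (chrV:11980005-11980105, plus strand): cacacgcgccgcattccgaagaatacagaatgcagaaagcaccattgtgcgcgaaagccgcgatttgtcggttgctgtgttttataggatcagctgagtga
snr-1 (chrIV:17087606-17087706, plus strand): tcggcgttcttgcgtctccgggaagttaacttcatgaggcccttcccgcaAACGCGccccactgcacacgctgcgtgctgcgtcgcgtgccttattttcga
prp-8 (chrIII:8163893-8163993, plus strand): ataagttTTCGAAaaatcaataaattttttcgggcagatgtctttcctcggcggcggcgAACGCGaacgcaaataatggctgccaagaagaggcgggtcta
prp-40 (chrIII:9521870-9521970, plus strand): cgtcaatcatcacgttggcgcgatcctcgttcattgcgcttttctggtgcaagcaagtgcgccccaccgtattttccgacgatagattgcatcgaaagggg
uaf-2 (chrIV:17118740-17118840, plus strand): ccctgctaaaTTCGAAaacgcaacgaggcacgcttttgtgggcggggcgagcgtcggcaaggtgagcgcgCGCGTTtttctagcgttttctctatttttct
rsp-1 and rsp-2 (chrII:11453160-11453260, plus strand): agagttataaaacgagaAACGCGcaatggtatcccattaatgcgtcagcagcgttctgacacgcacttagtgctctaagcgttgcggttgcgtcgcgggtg
rsp-3 (chrIII:12688117-12688217, plus strand): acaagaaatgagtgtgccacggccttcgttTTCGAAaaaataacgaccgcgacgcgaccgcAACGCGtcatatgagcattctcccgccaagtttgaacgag
sftb-6 (chrII:98153-98253, plus strand): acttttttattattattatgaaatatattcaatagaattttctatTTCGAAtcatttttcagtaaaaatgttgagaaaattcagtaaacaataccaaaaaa
prp-9 (chrII:8525484-8525584, plus strand): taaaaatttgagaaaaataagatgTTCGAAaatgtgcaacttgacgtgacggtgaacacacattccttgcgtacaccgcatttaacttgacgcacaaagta
snr-3 and rsp-5 (chrII:6489948-6490048, plus strand): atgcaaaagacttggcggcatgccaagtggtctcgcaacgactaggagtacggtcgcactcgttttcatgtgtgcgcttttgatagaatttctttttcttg

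HMG-11 regions stood at most splicing genes. A listed region lay in the window of 40 of the 52 genes, which is 76.9% (95% Wilson interval 63.9 to 86.3), while 34.4% of all protein-coding genes were listed. A peak lay in the window of 29, which is 55.8% of the genes (interval 42.3 to 68.4), against 15% of all protein-coding genes. This background takes in genes whatever their expression, and no set matched for expression was used. Among listed genes alone, 29 of 40 had a peak (72.5%, interval 57.2 to 83.9), against 43.5% of listed protein-coding genes. The 29 genes were served by 28 distinct peaks, because rsp-1 and rsp-2 shared one. Intervals are over genes of 1 pair of libraries and cover neither sequencing depth nor differences between animals, and no test was run, because 1 group offers no contrast.

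The median rank over the 40 listed genes was 2238.5, with quartiles of 1174.8 and 4176.5, and the median over all listed protein-coding genes was 5241. The 100 strongest held no splicing gene, against 76 of the 6861 listed protein-coding genes (1.11%), so a count of 0 in 40 is near the background. The 500 strongest held 1, rnp-6, or 2.5% against 5.77%. The 1000 strongest held 9, or 22.5% of the listed splicing genes against 11.9% of listed protein-coding genes. The 2000 strongest held 17, or 42.5% against 24.6%.

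**Figure D1:**
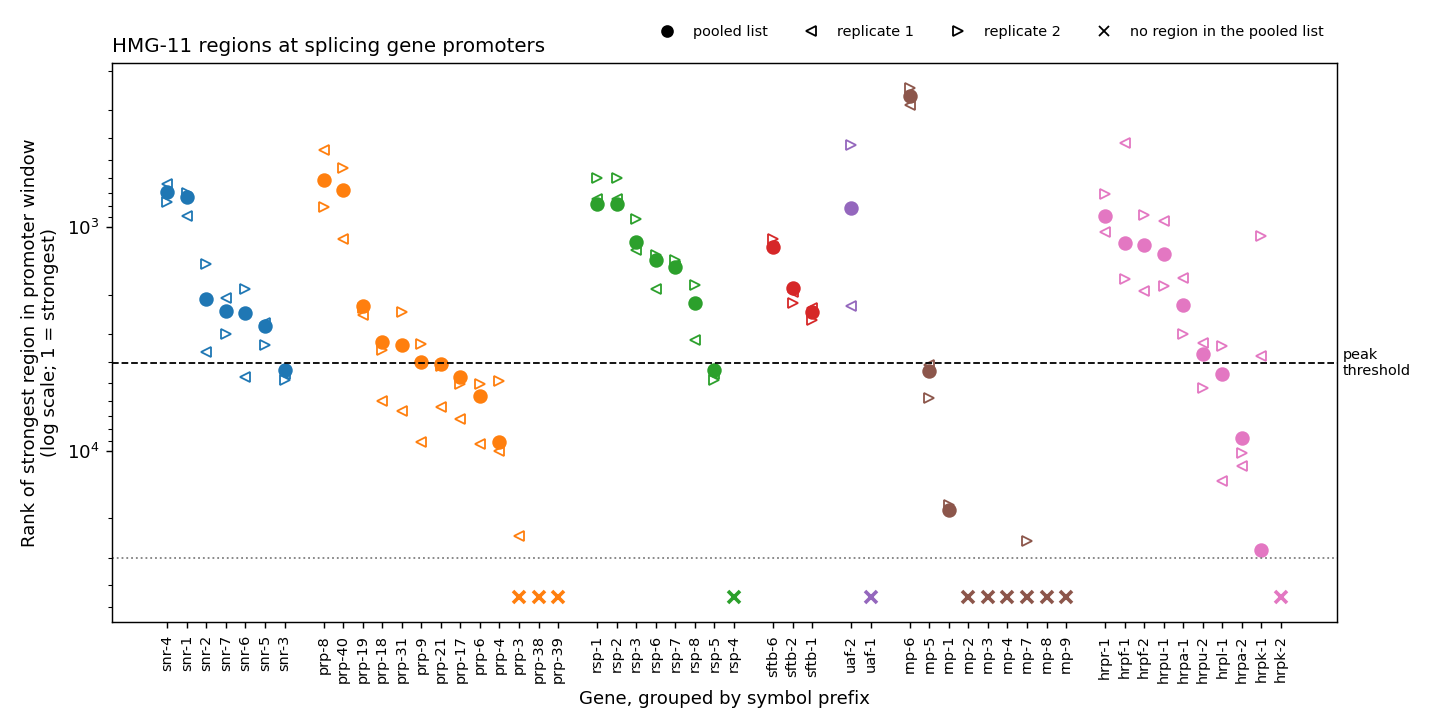
Rank of the strongest HMG-11 region in the promoter window of each of the 52 genes, by symbol prefix, on a log scale with rank 1 at the top. Filled circles are the pooled list, open triangles the 2 replicates, the dashed line is rank 4037, the dotted line is rank 30000, and crosses below it mark the 12 genes with no region in the pooled list. The snr-, prp-, rsp-, sftb- and hrp circles lie mostly above the dashed line, and the rnp- genes are mostly crosses.

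All 7 snr- genes, which encode Sm proteins, were listed, 6 had a peak (exact 95% interval for the share, 42.1% to 99.6%), and their median rank was 2364. The strongest was snr-4, which encodes SmD2. Its region (chromosome V, 11979827 to 11980282) had a summit 332 bp upstream of the start and ranked 698 in the pooled list, with a signal of 164, 640 in replicate 1 and 771 in replicate 2. No other protein-coding gene had that summit in its window, but an snRNA gene on the opposite strand, T11F9.15, did, together with an ncRNA gene and a piRNA gene. The second was snr-1, which encodes SmD3 (chromosome IV, 17087428 to 17087883). It ranked 735 with a signal of 161, and 887 and 704 in replicates 1 and 2. The 3 ranks of each of these genes lay close together.

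The next Sm gene, snr-2 (SmB), ranked 2101 with a signal of 104 (chromosome I, 13338794 to 13339249). It ranked 3620 in replicate 1 and 1467 in replicate 2, so its place rested more on the second library. Then came snr-7 (SmG) at 2364, snr-6 (SmE) at 2415 and snr-5 (SmF) at 2779. Of these, snr-6 fell below rank 4037 in replicate 1, where it ranked 4661, against 1895 in replicate 2. Their summits lay 274, 253 and 492 bp upstream. The remaining Sm gene, snr-3 (SmD1), was listed but had no peak, at rank 4373. The count of 6 falls to 3 when each summit is given only to its nearest protein-coding start, and to 2 with the 2018 strongest peaks.

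All 3 sftb- genes, which encode subunits of SF3B, had a peak, and each replicate placed all 3 among its own 4037 strongest. The exact interval for 3 of 3 still reaches down to 29.2%. Strongest was sftb-6, the small branch-point subunit, at rank 1229 with a signal of 133 (chromosome II, 97975 to 98430), and 1221 and 1127 in the replicates. Another subunit gene, sftb-2, ranked 1876 with a signal of 110 (chromosome V, 127849 to 128304), and 1953 and 2188 in the replicates. The gene for the largest subunit, sftb-1, ranked 2399 with a signal of 96.0 (chromosome III, 4269509 to 4269964), and 2287 and 2590 in the replicates. Pooled and replicate ranks lay close together at all 3. Each of the 3 summits, however, was nearer to the start of a neighbour than to that of the sftb- gene.

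The U2AF genes split. The small subunit gene, uaf-2, had its summit 23 bp upstream of a start and ranked 817 with a signal of 156 (chromosome IV, 17118562 to 17119017). The replicates placed it at 2252 and 428, a wide gap, with signals of 44.9 and 112 in their own lists. Another peak lay in its window, at rank 3153. The large subunit gene, uaf-1, had no listed region in its window in any of the 3 lists. It did have 6 listed regions inside the gene outside the window, the strongest at rank 8473, and the nearest peak was 4203 bp upstream of its start.

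Of the 13 prp- genes, 10 were listed and 6 had a peak (46.2%, exact interval 19.2 to 74.9), with a median rank of 3682.5 over the listed ones. Roles in this class are best known from yeast and human homologs. The catalytic-centre protein of U5 is encoded by prp-8, which had the strongest region (chromosome III, 8163715 to 8164170), at rank 615 with a signal of 170. The replicates ranked it 451 and 814, with a summit 430 bp upstream. The U1-associated factor prp-40 followed at rank 680 with a signal of 165 (chromosome III, 9521692 to 9522147), and 1125 and 544 in the replicates. Its window held a second region, also a peak, at rank 3158. Both genes were far inside the threshold in each library.

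After these came prp-19, the ubiquitin ligase of the complex that activates the spliceosome, at rank 2250 with a signal of 99.5 (chromosome III, 5172466 to 5172921). It ranked 2464 and 2308 in the replicates, with its summit 649 bp upstream. The other prp- peaks were weak in replicate 1. The second-step factor prp-18 ranked 3255, and 5970 and 3545 in the replicates. The U4/U6 protein prp-31 ranked 3376, and 6633 and 2401. The SF3A subunit gene prp-9 ranked 3989, and 9164 and 3345. Only 3 of the 13 genes were therefore among the strongest of both replicates. In replicate 1 alone, 3 prp- genes reached the 4037 strongest regions, and in replicate 2 alone, 6 did.

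Below the threshold stood prp-21, another SF3A subunit gene, at 4111, then prp-17 at 4678, prp-6 at 5672 and prp-4 at 9128. Their replicate 1 ranks ran from 6383 to 10024 and their replicate 2 ranks from 4185 to 5043. No region of the pooled list lay in the windows of prp-3, prp-38 and prp-39, and only prp-3 had one in a replicate, at rank 24082 in replicate 1. The threshold thus passed between prp-9 at 3989, with a signal of 68.5, and prp-21 at 4111, with a signal of 67.1. The last peak of the list had a signal of 67.9.

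**Figure D2:**
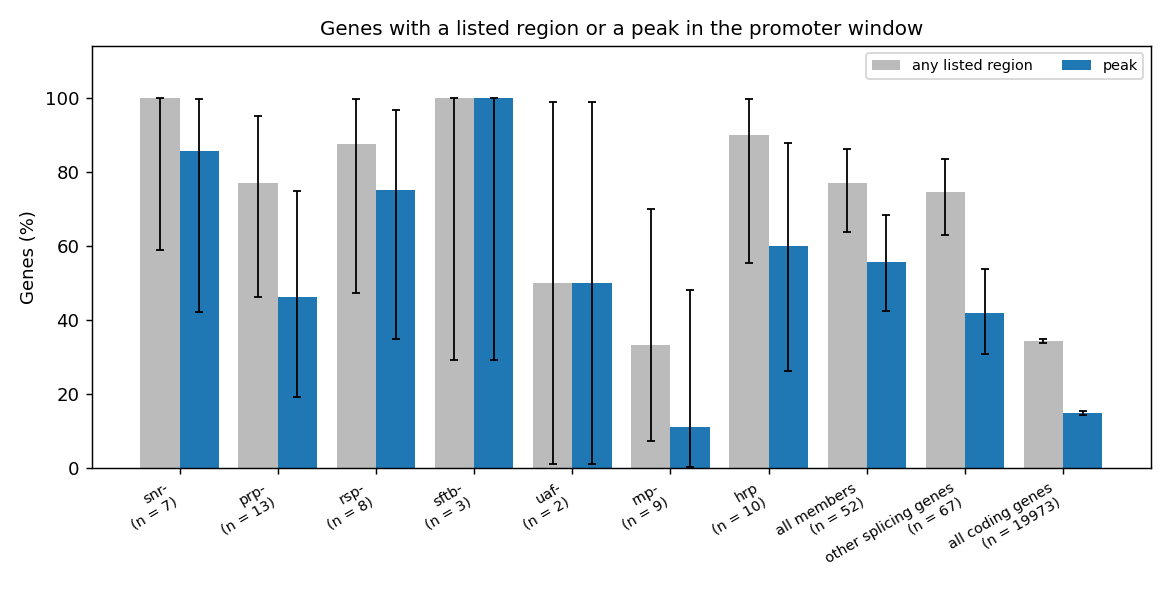
Percentage of genes with any listed region (grey) and with a peak (blue) in the promoter window, for each symbol prefix, all 52 members, 67 other splicing genes and all 19973 protein-coding genes. Bars start at 0, and error bars are 95% intervals, exact for the prefixes and Wilson for the 3 larger sets. Peaks stood at 6 of 7 snr-, 6 of 8 rsp- and 3 of 3 sftb- genes and at 1 of 9 rnp- genes, and the intervals are wide.

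SR protein genes ranked strongest among the prefixes with 3 or more listed genes, with a median rank of 1395 over 7 listed of 8. A peak stood at 6 of the 8 (75%, exact interval 34.9 to 96.8), and the same number were among the strongest of both replicates. The strongest region lay between rsp-1 and rsp-2, on chromosome II from 11452982 to 11453437. It ranked 790 with a signal of 158, and 748 and 601 in the replicates. Its summit was 152 bp upstream of rsp-1 and 255 bp upstream of rsp-2, so a single peak was counted for both genes. The homolog of human SRSF1, rsp-3, ranked 1162 with a signal of 136 (chromosome III, 12687939 to 12688394), and 1267 and 921 in the replicates.

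The other SR genes with a peak were weaker. The pooled ranks were 1395 for rsp-6, 1511 for rsp-7 and 2182 for rsp-8. In replicate 1 they ranked 1884, 1493 and 3184, and in replicate 2 they ranked 1336, 1406 and 1818. Summits lay 186 and 252 bp upstream of rsp-6 and rsp-7 and 626 bp upstream of rsp-8. Among the others, rsp-5 was listed below the threshold at 4373, and rsp-4, the homolog of human SRSF2, had no listed region in its window in any list.

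A summit between rsp-5 and snr-3 gave the second pair of splicing genes that share a region. It lay 167 bp upstream of rsp-5 and 237 bp upstream of snr-3 (chromosome II, 6489770 to 6490225), and both starts point away from it. It ranked 4373 with a signal of 64.3 in the pooled list, 4540 in replicate 1 and 4813 in replicate 2. All 3 ranks were just outside the 4037 strongest. The rsp-1 and rsp-2 region has the same layout with a stronger signal, and both sequences are printed above.

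**Figure D3:**
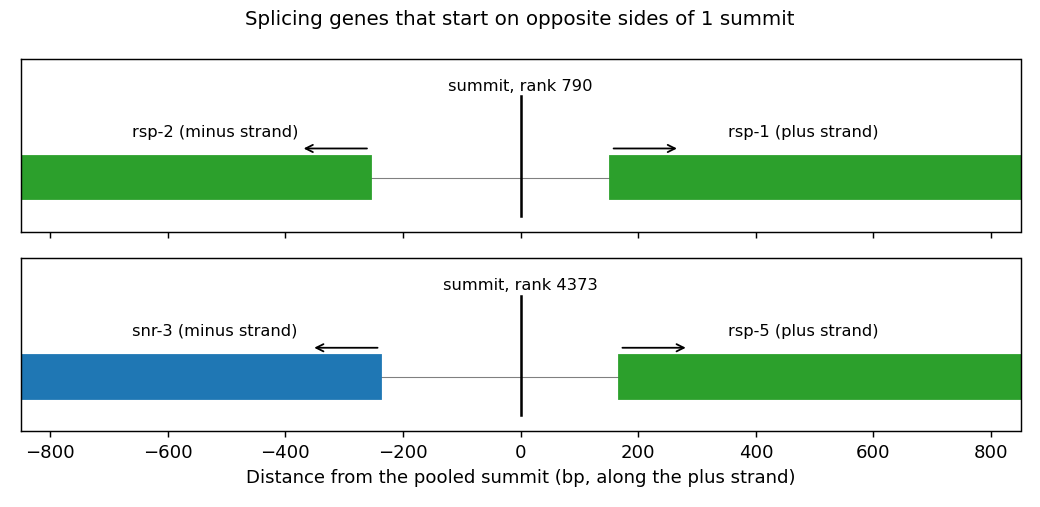
The 2 regions whose summit lies between a pair of splicing genes, with distance from the pooled summit in bp on the horizontal axis, coloured bars for the genes and arrows for the direction of transcription. The summit of rank 790 lies 152 bp from rsp-1 and 255 bp from rsp-2, and that of rank 4373 lies 167 bp from rsp-5 and 237 bp from snr-3.

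The hrp genes, which encode hnRNP proteins, had 9 of 10 listed and 6 with a peak (60.0%, exact interval 26.2 to 87.8), at a median rank of 2227. The hnRNP R gene hrpr-1 was strongest at rank 894 with a signal of 151 (chromosome I, 12065184 to 12065639), and 1046 and 707 in the replicates. Its window held another peak as well, and a tRNA gene shared the summit. The hnRNP F genes came next. For hrpf-1 the rank was 1179 with a signal of 135 (chromosome I, 6757014 to 6757469), and 420 and 1708 in the replicates. That summit lay 894 bp upstream of hrpf-1, also in the window of gpc-2, and the hrpf-1 start was not the nearest protein-coding start. With 500 bp on either side of the start, or with the nearest start only, hrpf-1 ranked 4235 and had no peak. For hrpf-2 the rank was 1207 with a signal of 134 (chromosome IV, 6376494 to 6376949), and 1938 and 885 in the replicates. The replicates thus ordered these paralogs oppositely.

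The other hnRNP peaks stood at hrpu-1 (1318), hrpa-1 (2227) and hrpu-2 (3690), and hrpu-2 fell to 5242 in replicate 2. The hrpu-1 summit was the only one of the 29 that lay downstream of the nearest start of its gene, at +147 bp. Listed without a peak were hrpl-1 at 4547, hrpa-2 at 8730 and hrpk-1 at 27787, and hrpk-2 was not listed in any list.

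The hrpk-1 promoter, an hnRNP K gene, was read differently by the pooled and replicate lists. In replicate 1 it ranked 3776 with a signal of 33.7, and in replicate 2 it ranked 1094 with a signal of 83.8. Both replicates therefore placed it among their 4037 strongest, while the pooled list held only a region at rank 27787 with a signal of 20.2, its summit 454 bp upstream. The replicate summits lay 321 bp apart, each near a different annotated start. Among all protein-coding genes, 2413 (12.1%) were among the strongest of both replicates, 52 of these had no pooled peak, and 30 of them, like hrpk-1, ranked below 20000 or were missing from the pooled list.

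The rnp- genes held the strongest region of all 52 and the smallest share of genes with a peak. It belonged to rnp-6, the homolog of the human splicing factor PUF60, at rank 258 with a signal of 216 (chromosome I, 3546827 to 3547282), and 283 and 239 in the replicates. The summit lay 145 bp upstream of rnp-6 and nearer to the start of rde-10, a gene of the RNA interference pathway on the opposite strand. It was the only rnp- peak in 9 genes (11.1%, exact interval 0.281 to 48.2). With a window from 2000 bp upstream the count was 3, since peaks lay 1134 bp upstream of rnp-1 (rank 1156) and 1344 bp upstream of rnp-7 (rank 1411), and with the nearest start only it was 0. Listed below the threshold were rnp-5, the homolog of human RNPS1, at 4391 with a signal of 64.2 (chromosome III, 853915 to 854370), and rnp-1 at 18417 with a signal of 27.5 (chromosome V, 12191111 to 12191566). For rnp-5 the replicate ranks were 4142 and 5781, and rnp-1 was listed in replicate 2 only, at 17480.

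No pooled region lay in the windows of rnp-2, rnp-3, rnp-4, rnp-7, rnp-8 and rnp-9. Not all of these are splicing factors in the narrow sense. In worms rnp-8 is known as a partner of the poly(A) polymerase GLD-2 in the germ line, and rnp-4 encodes the Y14 component of the exon junction complex. The U1-70K gene, rnp-7, is a core splicing gene, and its window held 1 region, in replicate 2 at rank 25314.

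Compared side by side, peaks stood at 6 of 7 snr-, 6 of 8 rsp-, 3 of 3 sftb-, 6 of 10 hrp, 6 of 13 prp-, 1 of 2 uaf- and 1 of 9 rnp- genes. The 6 rsp- genes had 5 distinct peaks among them. The exact intervals are wide, and even those farthest apart, of rnp- (0.281% to 48.2%) and snr- (42.1% to 99.6%), overlap. That pair was picked as the most extreme, and its counts move with the assignment. With the nearest start only, 3 snr- and 0 rnp- genes had a peak. With 2000 bp upstream, 6 snr- and 3 rnp- genes had one. Differences between prefixes were not tested. By chromosome, a peak stood at 8 of 14 of the genes on III, where 23% of all protein-coding genes had one, and at 8 of 10 on IV (15%). It stood at 6 of 10 on I (20.9%), 5 of 10 on II (12.2%), 2 of 6 on V (9.13%) and 0 of 2 on X (15%).

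The replicates gave the same picture for most of the genes. Replicate 1 listed 40 and replicate 2 listed 41, of which 39 were common to both and 10 genes were in neither. In both libraries, 25 genes were among the 4037 strongest (48.1%, Wilson interval 35.1 to 61.3), against the 12.1% of all protein-coding genes given above. Of the 29 genes with a peak, 24 were in that group, 4 were among the strongest of replicate 2 alone and 1 of replicate 1 alone. The 4 were snr-6, prp-18, prp-31 and prp-9, and the 1 was hrpu-2.

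Ranks tended to be better in replicate 2. Of the 39 genes listed in both, 26 ranked higher in replicate 2 and 13 in replicate 1, whereas all protein-coding genes listed in both divided into 2970 and 2970. The Spearman correlation of the 2 replicate ranks over the 39 genes was 0.79, and over the 5945 protein-coding genes listed in both it was 0.82. Both are across genes that share the same libraries and are given as a description. Summits were placed alike, with a median gap between the replicates' strongest regions of 24 bp over the 29 genes with a peak, against 27 bp over protein-coding genes with a peak. For 22 of the 29 the gap was at most 50 bp, and the widest was 123 bp, at hrpa-1.

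**Figure D4:**
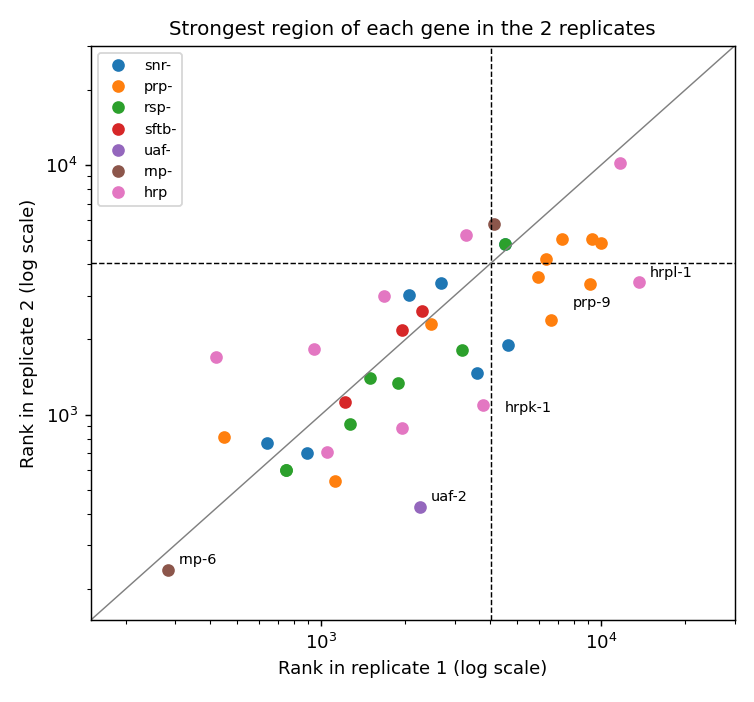
Rank of the strongest region of each gene in replicate 1 (horizontal) and replicate 2 (vertical), both on log scales, for the genes listed in both, coloured by prefix. Dashed lines are rank 4037 in each replicate, the grey line is equality, and genes that share a region share a point. Of 39 genes, 26 lie below the line, with a better rank in replicate 2, and most prp- genes fall to the right of the vertical dashed line.

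Summits lay a little upstream of the annotated transcript starts, as they did at other genes. Where transcription begins was not measured here, and for trans-spliced transcripts it may differ from the annotated start. Over the 29 genes with a peak the median was 245 bp upstream, with quartiles at 393 and 152 bp, and over the 2987 protein-coding genes with a peak it was 234 bp, with quartiles at 428.5 and 126 bp. Between 100 and 300 bp upstream lay 15 of the 29 (51.7%), against 41.2% for all. The snr- summits were farther out, with a median of 353.5 bp over 6 genes, than those of rsp- (248.5 bp, 6 genes), sftb- (201 bp, 3 genes), prp- (182 bp, 6 genes) and hrp genes (173.5 bp, 6 genes). The ranges overlap, since prp- summits ran from 56 to 649 bp and snr- summits from 253 to 492 bp.

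**Figure D5:**
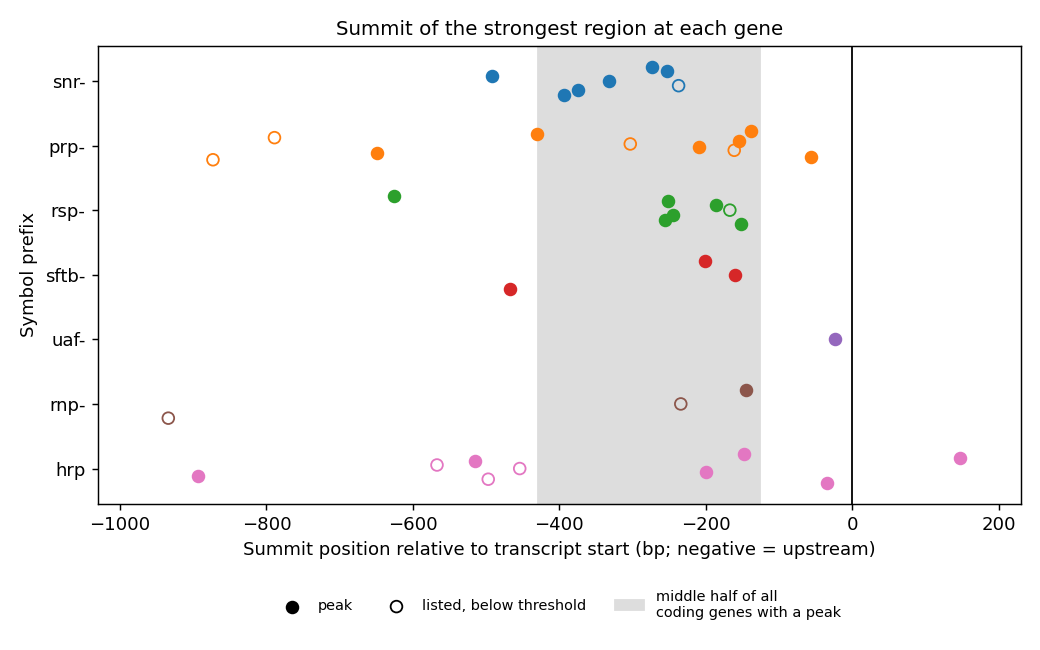
Position of the strongest summit relative to the nearest transcript start of each listed gene, in bp with negative values upstream, one row per prefix. Filled circles are peaks, open circles are listed regions below the threshold, and the grey band holds the middle of the distribution for all protein-coding genes with a peak, between the quartiles at 428.5 and 126 bp upstream. Only the hrpu-1 summit, at +147 bp, is a peak to the right of the start.

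Most of these peaks sat between divergent genes. The summit of the strongest peak was also in the window of another protein-coding gene for 22 of the 29 genes (75.9%), against 49% of protein-coding genes with a peak. In all 22 cases a gene on the opposite strand was among them, and the share with such a gene was 46.3% over all protein-coding genes with a peak. The splicing gene's own start was the nearest protein-coding start for 18 of the 29 (62.1%), against 74.3% over all. At these promoters the peak cannot be assigned to one gene of the pair. When each summit was given to its nearest protein-coding start only, 18 splicing genes had a peak, 64.3% of the 28 then listed, against 37.4% of all listed protein-coding genes. Under that assignment 3 snr- genes, no sftb- gene and no rnp- gene had a peak.

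The partners across the summit were of many kinds, and a few belong to splicing. Across from rsp-7 stood snu-13, whose human homolog binds U4 snRNA and box C/D RNAs. Across from sftb-6 stood luc-7L3, of a family whose yeast founder is a U1 protein. The other partners included bath-42 at prp-8, clu-1 at prp-40, snx-13 at snr-1, W08E3.4 at snr-2, Y71F9B.6 at snr-7, Y49E10.16 at snr-6 and cuc-1 at snr-5. Also found were emb-1 and K10D2.5 at prp-19, mccc-1 at prp-18, mat-1 at prp-31, mrps-18B at prp-9 and spin-4 at rsp-3. W03F9.2 shared the sftb-2 peak, R10E4.1 that of sftb-1, C50D2.10 that of sftb-6, and itsn-1 and the snoRNA gene Y116A8C.50 that of uaf-2. The hrpf-1 peak was shared with gpc-2 and the hrpf-2 peak with bli-6. The 7 peaks with no other protein-coding gene were those of snr-4, rsp-6, rsp-8, hrpa-1, hrpr-1, hrpu-1 and hrpu-2.

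Many worm genes lie in runs on one strand, where transcription of an operon starts at the first gene, so the neighbours of the unlisted genes were examined. A protein-coding neighbour on the same strand ended no more than 500 bp upstream of 13 of the 52 genes (25%), against 19.8% of all protein-coding genes. Of the 12 unlisted genes, 7 had such a neighbour, and at 5 of these 7 the first gene of the run had a peak. Over all unlisted protein-coding genes with a neighbour, 605 of 2734 (22.1%) did. Whether these runs are transcribed together was not tested.

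The genes that head these runs include splicing genes. Directly upstream of prp-38, at a gap of 107 bp, lay plrg-1, a gene of the Prp19 complex, whose region ranked 271 and was stronger than that of any member except rnp-6. Upstream of rnp-7, at a gap of 5 bp, lay syf-2, also of the Prp19 complex, at rank 1411. That peak was also in the window of K04G7.1 on the opposite strand, and the syf-2 start was not the nearest protein-coding start. Upstream of prp-39 was hmgs-1, which encodes HMG-CoA synthase, at rank 798, and upstream of prp-3 was smrd-1 at rank 3147. The hmgs-1 peak was also in the window of F25B4.4, and the smrd-1 peak in that of enu-3.1. Such shared peaks cannot be assigned to the head of the run alone. The run of rsp-4 starts at fbxl-3, 4 genes ahead, at rank 2826, a peak that is also in the window of mog-5. A nearer peak, at rank 1996, lay 1305 bp upstream of rsp-4, in the window of its direct neighbour ndx-6. The other 2 runs had no listed region at the head, rnp-2 for rnp-3 and snfc-5, a SWI/SNF gene, for rnp-4. Counting a peak at the gene or at the first gene of its run, an alternative chosen after the data were seen, raised the number of genes with a peak from 29 to 36. A looser rule can only raise such a count. The share of all protein-coding genes under this rule is not given here, so the rise has no background to be read against.

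Inside the genes themselves, outside the windows, 22 of the 52 had listed regions, 54 regions in all. That is 42.3% of the genes, against 23.2% of all protein-coding genes, with no correction for gene length. None of the 54 was a peak, while 5.17% of the 13743 pairs of a protein-coding gene and such a region were, and the strongest of the 54 ranked 6441, at rsp-8. The long gene hrpu-2 held 11, prp-6 held 7, and uaf-1 and rnp-6 held 6 each.

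Splicing genes without these prefixes were described in the same way. This list of 69 symbols, of which 67 matched a gene, took in snRNP proteins, helicases, the Prp19 complex, SF3 and exon junction factors, and it was written with earlier results of these data known. It also took in RNA-binding regulators of splicing, so its shares are not those of core spliceosome genes alone. Of these regulators, mbl-1, fox-1, asd-1, asd-2, etr-1, exc-7, mec-8, ptb-1, sup-12, sym-2, tdp-1 and unc-75 had no peak, while rbm-5 and rbm-25 had one. A peak also stood at spk-1, at rank 743. Genes of the spliceosome itself were without a peak as well, among them sap-49, phf-5, ddx-23, mog-1 and snrp-40.2. A listed region lay in the window of 50 of the 67 (74.6%, Wilson interval 63.1 to 83.5), and a peak in that of 28 (41.8%, interval 30.7 to 53.7). That interval overlaps the one for the 52 prefix genes, 42.3 to 68.4. Strong regions among them stood at plrg-1, at rank 271 with a signal of 213, snrp-40.1 at 372 with 196, usp-39 at 491 with 182 and mog-4, a DEAH-box splicing helicase gene, at 544 with 177. Among the 17 with no listed region were snrp-200 and eftu-2, which encode the U5 helicase and GTPase. The former lies 122 bp behind pisy-1 on the same strand, whose region ranked 1831.

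The DNA under the peaks held A+T and G+C in nearly equal amounts at most of these genes. Over the 28 distinct peaks the median A+T content of the 101 bp was 50.5%, with quartiles of 47.5% and 56.4%, from 39.6% at snr-1 to 82.2% at sftb-6. The median was 52.5% over all 4037 peaks and 63.4% over the other 25963 listed regions. The 10 listed regions of splicing genes below the threshold had a median of 62.4%. The snr-1 sequence printed above is thus the most G+C-rich of the set, and the sftb-6 sequence is the exception at the other end. In a window of 100 bp on either side the median over the same peaks was 58.0%, while the medians of the other sets above are for 101 bp.

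Runs of A and T and GA repeats were counted as well. AAAAAA, counted with TTTTTT on the other strand, was in 7 of the 28 (25%, against 27.1% of all peaks). AAATTT, its own reverse complement, was in 4 (14.3% against 8.97%), and TATATA, also its own reverse complement, was in 0 (against 1.54%). GAGAGA, counted with TCTCTC, was in 3 (10.7%), against 31.6% of all peaks and 27.6% of the 2240 peaks that are strongest for a protein-coding gene. Its count was 6 when replicate 1 was left out. A word in the window is a description of the sequence and does not show that a factor bound there.

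After the sequences had been read, 11 further words were counted, and 2 of them are marked in capitals above. TTCGAA, its own reverse complement, was in 11 of the 28 (39.3%), against 6.07% of the 2240 protein-coding peaks, 4.71% of all peaks and 6.84% of the other listed regions. The peaks were those of prp-8, uaf-2, rsp-3, sftb-6, rsp-6, rsp-7, prp-19, snr-7, snr-6, prp-18 and prp-9. It was also in 4 of the 10 listed regions below the threshold and in 6 of the 28 peaks of the other splicing genes (21.4%). AACGCG, counted with CGCGTT, was in 9 of the 28 (32.1%), against 11.7% of the 2240, 8.67% of all peaks and 2.18% of the other listed regions, and in 8 of the 28 peaks of the other splicing genes (28.6%). Both words were in 3 peaks, those of prp-8, uaf-2 and rsp-3, as the lines above show, and 17 peaks held at least 1 of them. With 100 bp on either side of the summit, TTCGAA was in 18 of the members' peaks and AACGCG in 11. The wider window holds more sequence, and the background shares given here are for 101 bp only, so these 2 counts cannot be set against them. The other 9 words ran from 53.6% of the members' peaks for GACGC, against 30.5% of the 2240, to 7.14% for CACACG, against 6.70%. Also near the background was TTCCCG, at 7.14% against 6.47%. The words were picked because they recurred in these sequences, so these counts are a description of the set they were picked from.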

How the data were processed

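Members and gene lists were chosen with earlier results of these data known. Whole L3 larvae gave 2 ChIP-seq libraries of 1 group, and 4 deposited ce11 lists were used: both replicates, the pooled reads and the thresholded list. Per the file descriptions deposited with the lists, regions were called against a control file and thresholded by the irreproducible discovery rate (IDR). Aligner, peak caller and read depth were not given in the sources used here. Ranking used the deposited signal of each region. The deposited −log10 q-value was not used for ranking, since 3637 pooled regions shared its highest value. Summits came from the deposited offset, and most are the centre of a 456 bp region. Lists on ce10 were not used here. Genes came from Ensembl release 115 (WBcel235) and sequence from the RefSeq genome of the same assembly. Coordinates count from 1. Python 3.11.15 with pandas 2.3.3, NumPy 2.4.6, SciPy 1.17.1 and matplotlib 3.10.9 assigned summits to windows, and the assignment was tested on simulated data. No p-value was computed. The result for 1 gene of the second splicing list is not reported here. All members with a peak, the 3 strongest per prefix with coordinates, all unlisted members, the members next to the threshold and genes sharing a described window are named; other genes were named after their values were seen. Alternatives were other windows, the nearest start only, the 2018 strongest peaks, each replicate alone and a wider sequence window.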

Additional observations from a re-analysis of the deposited data

How the results depend on the processing

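No paired analysis was possible because there was 1 group. With 500 bp on either side of the start, 25 members had a peak (69.4% of listed, against 40.7% of listed protein-coding genes), and with 2000 bp upstream, 32 did (74.4% against 47.1%). Giving each summit to its nearest start left 18 members with a peak, 3 snr-, 0 sftb- and 0 rnp- genes among them. The 2018 strongest peaks left 17 members (42.5% against 24.8%), 2 snr- and 2 prp- genes, and 18 of the other splicing genes. The top 2018 of both replicates held 15 members. The 2000 bp window gave 3 rnp- peaks. The median rank was 2381.5 with the 500 bp window and 3017 with the nearest start, and 2188 to 2375.5 without either replicate. The median position of listed summits, -252.5 bp, was -213 with 500 bp, -274 with 2000 bp, -192.5 with the nearest start, and -254 to -238.5 without either replicate. Leaving out a replicate in turn gave 26 to 30 members with a peak and 3 to 6 prp- genes, with 3 when replicate 2 was left out. It also gave a median A+T content of 52.5% to 53.5% and 2 to 6 GAGAGA peaks. With 100 bp on either side of the summit, A+T was 58.0% and the counts were 20 for AAAAAA, 13 for AAATTT, 1 for TATATA and 5 for GAGAGA. No background at that width is given here. The wider window holds more sequence; the other causes were not tested. Counting gene bodies listed 42 members.

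Read depth is unknown, anything weaker than the 30000 listed regions is missing, and an unlisted gene is not shown to be unbound. A shared control and pooled reads tie the 3 lists together.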
